A study of Rattus norvegicus with 11 samples.

Results

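Messenger RNA of rat RF fibroblasts treated with exosomes of the AS pancreatic adenocarcinoma line was compared with that of the same line under control conditions. The comparison was chosen by the titles of the arrays and took 2 of the 11 arrays of the series, 1 array of RF after AS exosomes and 1 array of RF at baseline. RF is labelled as an endothelial fibroblast line, although the source field of its baseline array names endothelial cell lines. AS is a rat pancreatic adenocarcinoma line, ASTspan8 is the same line made to express the tetraspanin Tspan8, and exosomes are small vesicles that cells release and that carry membrane proteins, cytosolic proteins and RNA. The labels give no exosome dose, no treatment time, and no age, sex or strain of the animals behind the lines. Treated and untreated lines alike grew in serum-containing RPMI with the selection drug G418, so both RF arrays share these. For orientation, values are also given for RF after ASTspan8 exosomes (1 array) and for a second recipient line, labelled endothelial cells (EC), after AS exosomes and at baseline (1 array each). RNA of ASTspan8 exosomes (2 arrays) was used once. Nothing in the labels says whether any of these came from separate cultures, and the number of arrays limits the precision.

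Fibroblasts make and remodel the collagen-rich matrix of connective tissue. Small leucine-rich proteoglycans, such as decorin and lumican, bind collagen fibrils and set their width and spacing. Fibroblasts that receive growth factors transcribe immediate early genes within minutes, then replication genes and histones as they pass into S phase, while amino acid shortage and unfolded protein in the endoplasmic reticulum call up separate transcription programs through the factors Atf4, Atf6 and Xbp1.

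Values are levels in log2 of array intensity, and a difference is the level after AS exosomes minus the level at baseline, so that a difference of 1 is 2-fold. With 1 array a group there is no test, and a gene was counted where its difference was at least 1 in size. Of 11069 genes measured, 111 (1.00%) were higher by 2-fold or more after AS exosomes and 129 (1.17%) were lower by as much. The same counts over 18619 probes were 183 (0.983%) and 220 (1.18%). At 4-fold there were 8 genes higher and 11 lower, and at 8-fold none higher and 4 lower. The median difference over all genes was -0.02, with 46.8% of genes above 0 and 51.8% below, the background for counts on either side of 0 in the lists that follow. The shares of 1.00% higher and 1.17% lower are the background for the 2-fold counts of every list. Differences between both RF arrays had an SD of 0.391 over probes, and 403 probes were at least 2-fold apart. The series holds 2 pairs of duplicate arrays, neither of RF. The EC pair after ASTspan8 exosomes had an SD of 0.144 with 9 probes 2-fold apart. The pair of ASTspan8 exosome RNA had an SD of 0.395 with 358 probes 2-fold apart, as wide as the difference between the RF arrays. The spread between repeat RF arrays was not measured. Of the 111 genes that were higher, 28 had several probes. In 25 of these all probes lay on the same side, but in only 7 were all at least 2-fold higher. Of the 129 that were lower, 16 had several probes. In 15 of these all lay on the same side, and in 4 all were at least 2-fold lower.

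**Figure D1:**
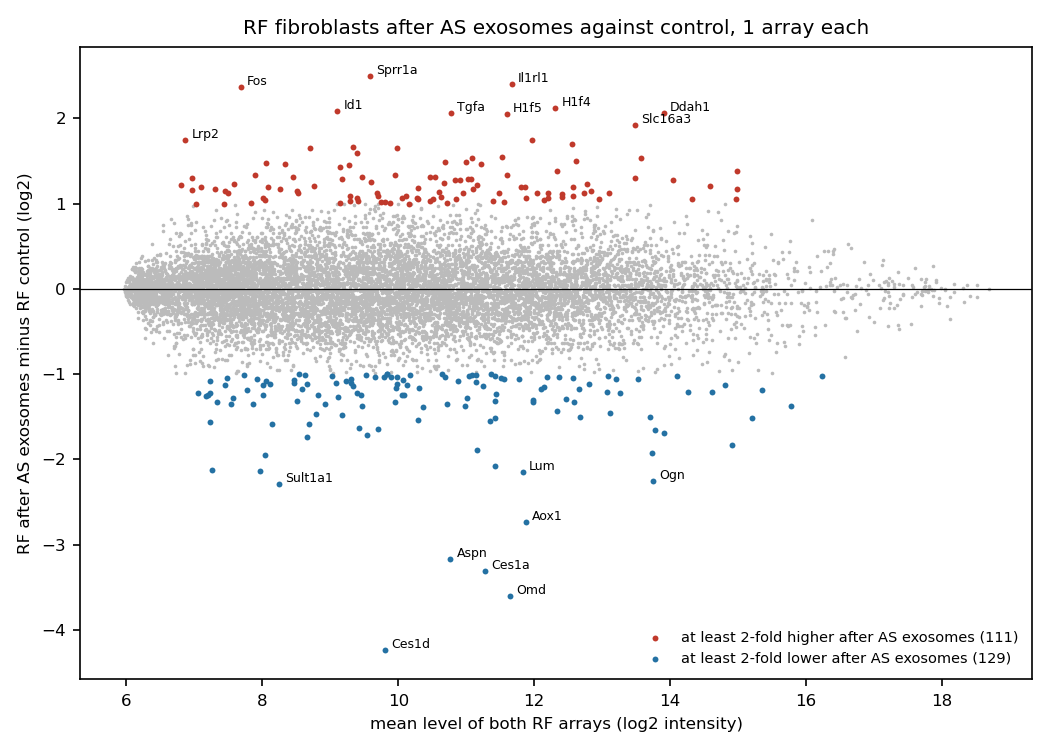
Each point is 1 of 11069 genes, with the mean level of both RF arrays on the x axis and the difference, RF after AS exosomes minus RF control, on the y axis, both in log2 intensity. The 111 genes higher and the 129 genes lower by 2-fold or more are coloured, and the lower side reaches further, to -4.24 for Ces1d against 2.50 for Sprr1a on the higher side.

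The fibroblast label was checked against marker genes. Of 28 fibroblast markers, 22 lay above log2 9 after AS exosomes and 23 at baseline, with list medians of 12.73 and 13.07. The line labelled EC gave like values, with 22 above log2 9 after AS exosomes and 23 at baseline (medians 12.95 and 13.19), so these markers do not tell the lines apart. Dcn was at 15.18 in EC after AS exosomes and 15.02 in EC at baseline, and Col3a1 at 15.32 and 14.74. Thy1, a surface protein often used to sort fibroblasts, was at 6.27 after AS exosomes and 6.32 at baseline, near the floor of the scale at 5.96, and at 8.88 and 9.09 in EC. Of 23 endothelial markers on the array, 2 lay above log2 9 after AS exosomes and 3 at baseline, in RF and in EC alike. The endothelial junction genes Pecam1 (7.04 after AS exosomes, 6.79 at baseline) and Cdh5 (7.93 and 7.96) were low on both. Brighter were the endothelial markers Vwf (8.82 after AS exosomes, 9.46 at baseline, on its brightest probe) and Eng (9.27 and 9.69). Epcam, a carcinoma surface protein, was at 6.03 after AS exosomes and 6.12 at baseline, and Tspan8 at 6.30 and 6.65. No endothelial, epithelial or leukocyte marker that passed the filter on dim probes was 2-fold apart. A second check used the RF array after ASTspan8 exosomes, which lies outside the comparison. Of 52 genes at least 8-fold lower there than on the EC arrays, 46 were closer to RF than to EC on the array after AS exosomes and 43 on the baseline array. Of the 13 genes at least 8-fold higher there than in EC, 1 was closer to RF on the array after AS exosomes and 2 on the baseline array.

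The 15 genes with the largest positive differences covered signalling, histones and metabolism. Highest was Sprr1a, a small proline-rich protein of squamous epithelium, also known from injured neurons, at 10.83 after AS exosomes and 8.33 at baseline (difference 2.50). Il1rl1, the receptor for interleukin 33, was at 12.87 after AS exosomes and 10.47 at baseline (difference 2.40), with 0.56 on its second probe. The growth factor Tgfa, a ligand of the EGF receptor, was at 11.80 and 9.74 (difference 2.06), with 0.18 on its second probe. Ddah1, which degrades the nitric oxide synthase inhibitor dimethylarginine, was at 14.94 and 12.88 (difference 2.06), with 1.18 on its second probe. Lrp2, an endocytic receptor, was at 7.74 and 5.99, with a difference of 1.75 on this probe and of -0.02 on its second probe. Also in this group were the lactate exporter Slc16a3, the chaperone partner Sdf2l1, the cytochrome P450 Cyp3a9 (10.81 after AS exosomes, 9.16 at baseline), and the stress cytokine Gdf15 (9.53 and 7.88).

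The 15 genes with the largest negative differences were mostly matrix and detoxification genes. Ces1d, a carboxylesterase, was at 7.68 after AS exosomes and 11.92 at baseline (difference -4.24). Omd, the proteoglycan osteomodulin, was at 9.85 after AS exosomes and 13.45 at baseline (difference -3.60). Aox1, aldehyde oxidase, was at 10.51 and 13.25 (difference -2.74). Sult1a1, a phenol sulfotransferase, was at 7.10 and 9.39 (difference -2.29). Fam180a (6.89 and 9.03) and C19h16orf74 (6.20 and 8.33) have no role given here. The plot of levels also shows the array of RF after ASTspan8 exosomes, which shares the single baseline array with this comparison and so is no independent check of it. Ces1d was at 7.19 on that array, and Omd at 7.75.

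**Figure D2:**
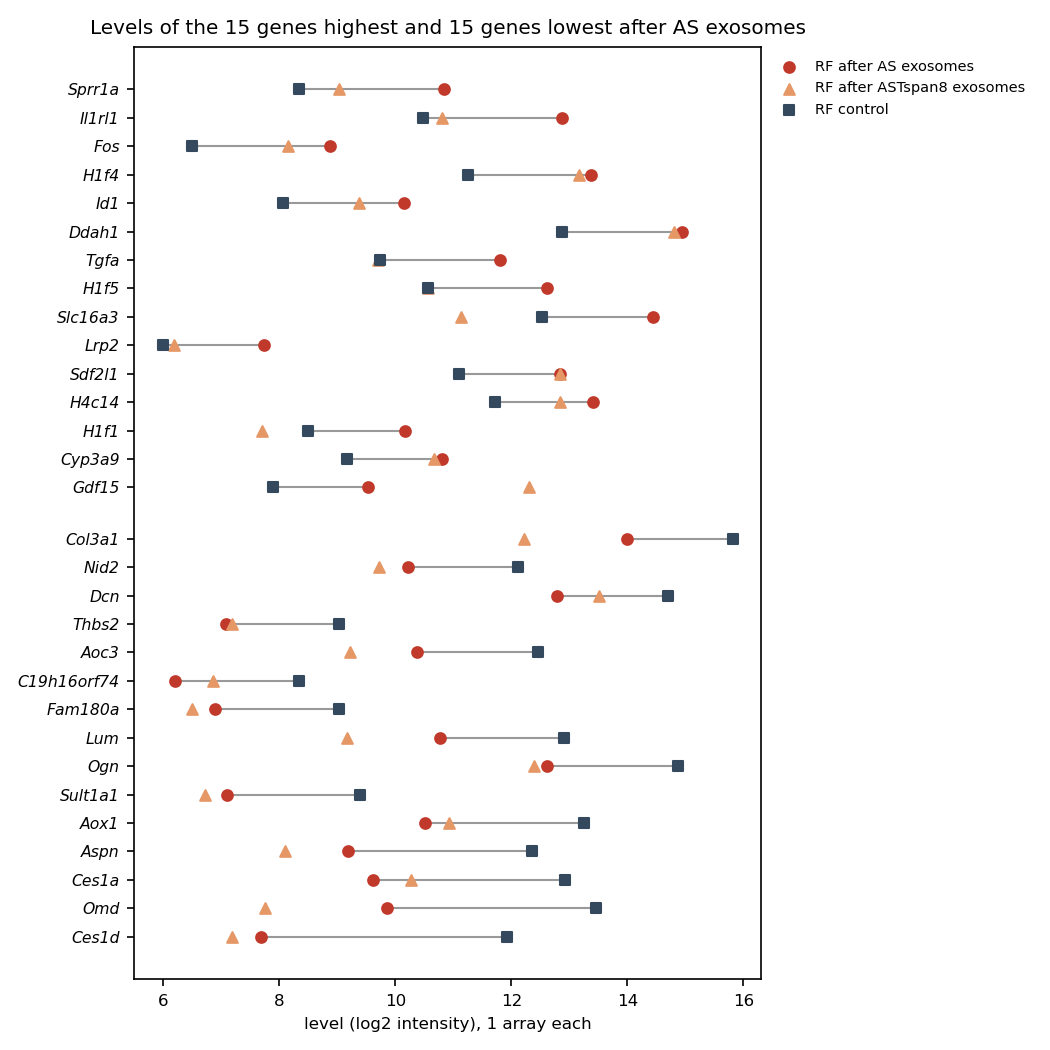
Levels in log2 intensity, on the x axis, of the 15 genes with the largest positive difference (upper block) and the 15 with the largest negative difference (lower block) on 3 single arrays, RF after AS exosomes (circles), RF after ASTspan8 exosomes (triangles) and RF control (squares). For Tgfa and H1f5 the array after ASTspan8 exosomes lay at the baseline level (9.70 and 10.56), and for Slc16a3 and H1f1 below it (11.13 and 7.70).

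Small leucine-rich proteoglycans were the list with the lowest median. Of 14 on the array, 12 passed the filter, and 7 of the 12 were at least 2-fold lower after AS exosomes, against 1.17% of all genes, with none at least 2-fold higher. The list median was -1.41, and -0.785 over all 14 without the filter on dim probes. Besides Omd, the 7 were Aspn (9.18 after AS exosomes, 12.35 at baseline), Ogn (12.62 and 14.87), Lum (10.76 and 12.91), Dcn (12.78 and 14.70), Epyc (11.93 and 13.43) and Podnl1 (7.85 and 9.17). Asporin, decorin and lumican bind fibrillar collagen, and osteoglycin and epiphycan belong to the same protein family. The family did not move as a block. Bgn, biglycan, the closest relative of decorin, was at 18.25 after AS exosomes and 18.40 at baseline, a level near the top of the scale, and its second probe differed by -1.11. Fmod, fibromodulin, was at 13.78 and 14.03, and Prelp at 12.68 and 12.67. In EC the same 12 genes had a median difference of 0.0 after AS exosomes and none was at least 2-fold apart.

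Collagen genes differed among themselves. Of 11 fibrillar collagen chains, only Col3a1, the type III chain of loose connective tissue, was at least 2-fold lower, at 13.99 after AS exosomes and 15.82 at baseline (difference -1.83). The type I chains lay on opposite sides of the baseline, Col1a1 at 14.88 after AS exosomes and 14.67 at baseline and Col1a2 at 17.18 and 17.40. Col5a3 (10.13 and 11.03) and Col5a1 (12.19 and 12.73) were lower by less than 2-fold, and the median of the 11 was -0.15 (-0.38 over fewer chains, with the filter set on the RF arrays compared). Among 18 other collagens, 1 was at least 2-fold lower, Col6a1 of the microfibrillar type VI collagen (11.67 after AS exosomes, 12.70 at baseline). Its partner chains Col6a2 (13.57 and 14.45) and Col6a3 (7.25 and 6.77) lay on opposite sides. No collagen-processing gene of 23 was 2-fold apart. Within them Loxl2, a collagen cross-linking oxidase, was at 11.01 after AS exosomes and 10.30 at baseline, and Adamts2, which trims procollagen, at 11.18 and 11.92.

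**Figure D3:**
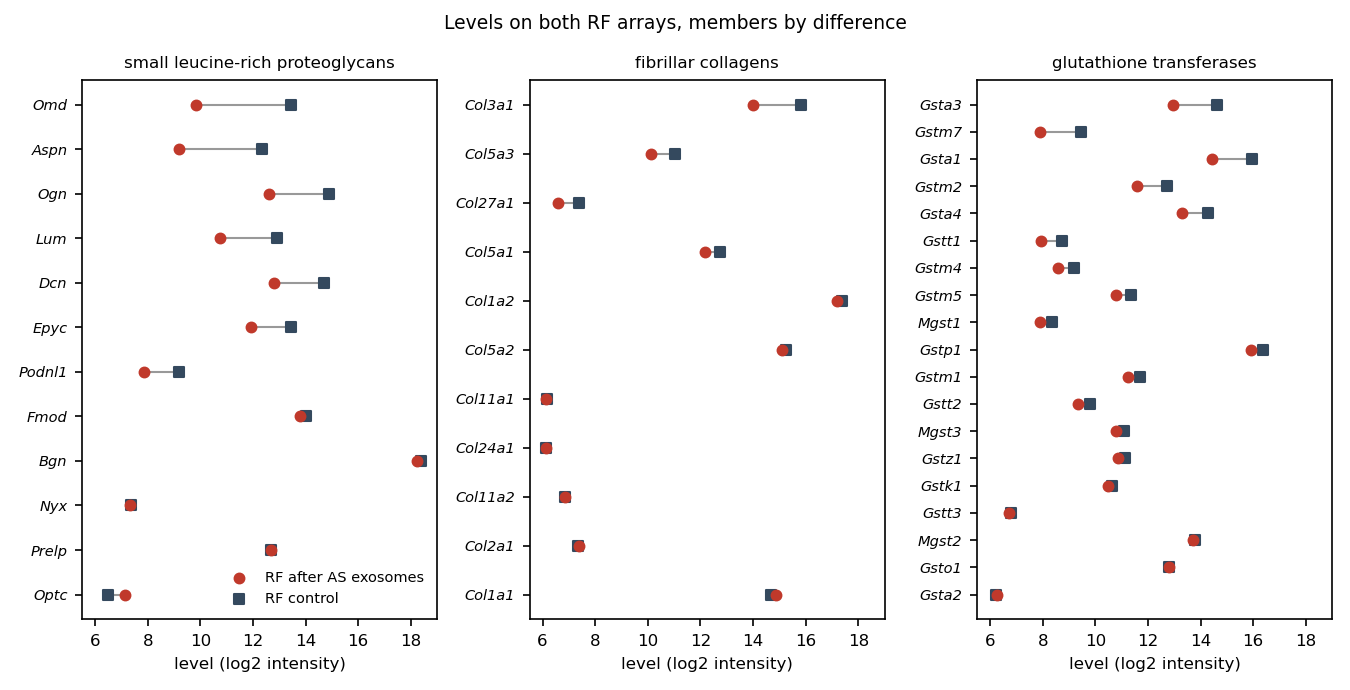
Levels in log2 intensity, on the x axis, of the small leucine-rich proteoglycans, fibrillar collagens and glutathione transferases that passed the filter, ordered by difference, on the array of RF after AS exosomes (circles) and the array of RF control (squares). Long connecting lines mark Omd, Aspn and Col3a1, while Bgn, Prelp and Col1a1 have nearly the same level on both arrays.

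Elastic fibre, matricellular and protease genes showed the same mixed picture. Against 1.17% of all genes, 3 of 15 elastic fibre genes were at least 2-fold lower after AS exosomes. These were the latent TGF-beta binding protein Ltbp3 (11.92 after AS exosomes, 13.25 at baseline) and the fibulins Fbln5 (10.37 and 11.65) and Fbln2 (12.68 and 13.74). Eln, elastin itself, was at 11.38 after AS exosomes and 11.93 at baseline. Of 22 matricellular and adhesive glycoproteins, 5 were at least 2-fold lower, against 1.17% of all genes. The list median was 0.03 (-0.10 with the filter set on the RF arrays compared). The lower ones were Thbs2 (7.07 and 9.02), the basement membrane protein Nid2 (10.22 and 12.11, with -0.79 on its second probe), Tnn (8.88 and 10.52), periostin, Postn (8.25 and 9.60), and Tgfbi (10.83 and 12.06). Thbs1, the close relative of Thbs2, lay on the other side, at 10.22 after AS exosomes and 9.33 at baseline, as did the calcification inhibitor Mgp (14.67 and 13.81). Fibronectin, Fn1, was at 16.46 and 16.44. Among 34 proteases and inhibitors, 4 were at least 2-fold lower, against 1.17% of all genes, and none higher. The gelatinase Mmp2 was at 15.09 after AS exosomes and 16.46 at baseline (difference -1.37), with -1.75 on its second probe. The others were the protease inhibitor Serpinf1 (13.66 and 14.87), the collagen-degrading cathepsin Ctsk (9.15 and 10.18) and Adam15 (9.67 and 10.68).

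Over the fibroblast marker list, 7 of 25 genes that passed the filter were at least 2-fold lower after AS exosomes, against 1.17% of all genes, none higher (19 of 25 below 0, median -0.35). They were Lum, Dcn, Col3a1, Postn, Fbln2, Col6a1 and Vim, the last an intermediate filament of mesenchymal cells (15.73 after AS exosomes, 16.75 at baseline). Most of these are also matrix genes of the lists above, so the count is not separate from theirs. Pdgfra, a receptor typical of fibroblasts, was at 14.11 after AS exosomes and 14.97 at baseline, and S100a4 at 17.88 and 18.04. Fewer cells of a type and less RNA per cell cannot be told apart in these arrays. Smooth muscle genes, which mark myofibroblasts, were close to baseline (14 genes, none 2-fold apart, median 0.01, or -0.04 with the filter at the 75th percentile), with Acta2 at 13.48 after AS exosomes and 13.52 at baseline.

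Genes of xenobiotic and aldehyde metabolism were low as well. Of 23 carboxylesterase, aldehyde and amine oxidation genes, 6 were at least 2-fold lower after AS exosomes, against 1.17% of all genes. In this list 20 lay below 0 (median -0.43, or -0.26 without the filter on dim probes). Beside Ces1d and Aox1, Ces1a was at 9.62 after AS exosomes and 12.93 at baseline (difference -3.31, with -3.21 on its second probe). Ces1a and Ces1d belong to a cluster of similar genes, and probes of such genes can bind each other's transcripts, so the gene behind each signal is uncertain. Aoc3, an amine oxidase of the vessel wall and fat, was at 10.38 and 12.46 (difference -2.08). The mitochondrial Aldh2 was at 12.69 and 13.64. Of 19 glutathione transferases, a list added after the values were seen, 17 lay below 0 (median -0.45). In this list 4 were at least 2-fold lower, against 1.17% of all genes. They were Gsta3 (12.95 and 14.61, with -0.32 on its second probe), Gstm7 (7.89 and 9.47), Gsta1 (14.45 and 15.96) and Gstm2 (11.57 and 12.72), which have near relatives within the family and are uncertain for the same reason. Gsto1 (12.82 after AS exosomes, 12.81 at baseline) and Mgst2 (13.73 and 13.78) were level. Antioxidant genes outside that family were not uniformly low. Sod2, the mitochondrial superoxide dismutase, was at 12.30 after AS exosomes and 10.75 at baseline (difference 1.55).

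Lysosomal genes were lower by a small amount across the list. Of 27, 22 lay below 0 (median -0.45), and 2 were at least 2-fold lower, against 1.17% of all genes. The 2 were the protease Ctsh (10.04 after AS exosomes, 11.39 at baseline) and Psap, the precursor of saposins (10.91 and 11.93). Lamp2, a membrane protein of lysosomes, was at 11.49 and 12.16. Cd81, a tetraspanin of exosomes and of the plasma membrane, was at 12.58 after AS exosomes and 13.60 at baseline, the only member of 40 tetraspanin and exosome machinery genes that was 2-fold apart.

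**Figure D4:**
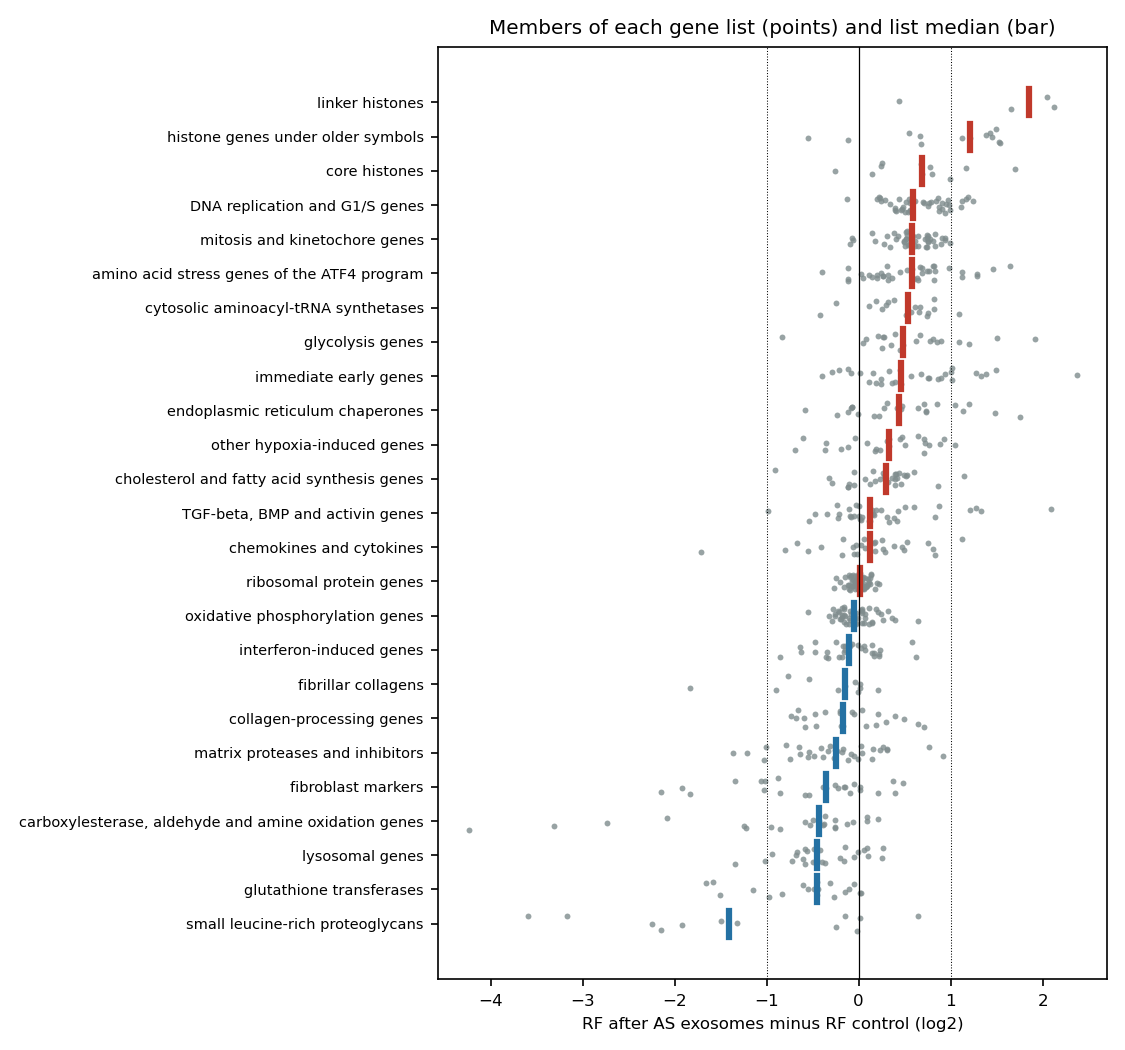
Each point is a gene that passed the filter and each bar the median of its list, with the difference of RF after AS exosomes minus RF control in log2 on the x axis and dotted lines at 2-fold. Medians run from 1.86 for linker histones to -1.41 for small leucine-rich proteoglycans, while ribosomal protein genes lie close around 0.01.

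On the higher side, histones had the largest list medians. Linker histones, which close the nucleosome, were measured by 4 genes, of which 3 were at least 2-fold higher after AS exosomes, against 1.00% of all genes (median 1.86). H1f4 was at 13.37 after AS exosomes and 11.25 at baseline (difference 2.12). H1f5 was at 12.62 and 10.57, with differences of 2.05 and 1.99 on its probes, and H1f1 at 10.16 and 8.50 (difference 1.66). H1f10, a linker histone made outside S phase too, was at 7.70 and 7.26. Of 11 core histones, 2 were at least 2-fold higher, against 1.00% of all genes (median 0.69). They were H4c14 (13.41 after AS exosomes, 11.71 at baseline, with 0.47 on its second probe) and H2ac4 (15.57 and 14.40). Another 13 histone genes carry older symbols in the annotation, a list added after the values were seen. Of them 8 were at least 2-fold higher, against 1.00% of all genes (median 1.21), such as Hist1h2bd (11.86 and 10.32) and Hist2h3c2 (11.74 and 10.25). Core histone genes are near-identical copies, so the copy behind each signal is uncertain and members of a count may share a signal. The promoters of the 3 linker histones are shown because these genes moved together. Each is the stretch of 90 bases before the gene's start, from RefSeq assembly GRCr8, 5′ to 3′ on the gene's strand, with the letters TATAAA and CCAAT (either strand) in capitals. They lie at chr17:41914335-41914424 (+) for H1f4, chr17:47421785-47421874 (+) for H1f5 and chr17:41794869-41794958 (-) for H1f1.
H1f4: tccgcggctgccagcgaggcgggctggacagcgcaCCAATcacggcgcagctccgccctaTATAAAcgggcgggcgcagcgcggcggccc
H1f5: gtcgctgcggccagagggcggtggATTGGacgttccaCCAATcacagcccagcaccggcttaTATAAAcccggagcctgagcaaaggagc
H1f1: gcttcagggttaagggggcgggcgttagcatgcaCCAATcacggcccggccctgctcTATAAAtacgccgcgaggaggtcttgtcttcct
All 3 hold TATAAA about 30 bases before the start (from base 30, 28 and 33) and CCAAT upstream of it. In windows of 250 bases before to 50 after the start, on either strand, TATAAA was in 3 of 4 linker histone promoters and in 14.3% of all 27457 promoters in the table, or 7.52% of the 9214 promoters of genes measured here. CCAAT was in 3 of 4, in 37.7% of all and in 38.1% of those of measured genes.

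Replication and mitosis genes were higher by less, across nearly the whole list. Of 45 replication and G1/S genes, 44 lay above 0 (median 0.59), and 5 were at least 2-fold higher after AS exosomes, against 1.00% of all genes. Pclaf, a partner of the replication clamp PCNA, was at 11.29 after AS exosomes and 10.05 at baseline. The histone chaperone subunit Chaf1b (12.40 and 11.21), Gins1, of the complex that activates the replicative helicase (11.68 and 10.51), and the helicase subunits Mcm3 (13.29 and 12.17) and Mcm4 (12.97 and 11.86) were the other 4. E2f8, a repressor of the same genes, was the one below 0 (8.22 and 8.35, with 0.64 on its second probe). Of 44 mitosis and kinetochore genes, none reached 2-fold but 41 lay above 0 (median 0.59), with Plk4, the kinase of centriole copying, highest (10.20 after AS exosomes, 9.21 at baseline). In EC after AS exosomes the medians were 0.20 for replication genes and 0.54 for mitosis genes. The promoter of Mcm7, another subunit of the same helicase, is printed because it holds TTTCGCGC, the letters bound by E2F factors, which control these genes. Mcm7 itself was not 2-fold apart. It is the stretch chr12:22163179-22163268 (-) of GRCr8, with TTTCGCGC and the CCAAT that overlaps it by 1 base in capitals.
Mcm7: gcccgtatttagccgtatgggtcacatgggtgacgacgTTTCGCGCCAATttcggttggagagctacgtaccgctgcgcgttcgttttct
TTTCGCGC (either strand) was in 8 of 35 promoters of the replication list (22.9%), in 0.342% of all promoters in the table and in 0.662% of those of measured genes. In the bases searched before the start, it was found for none of the 5 replication genes at least 2-fold higher.

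Immediate early genes, among them the AP-1 and Egr factors that cells switch on after growth factor contact, were higher. Of 31 that passed the filter, 8 were at least 2-fold higher after AS exosomes, against 1.00% of all genes, and none lower (26 above 0, median 0.46). Fos was at 8.87 after AS exosomes and 6.50 at baseline (difference 2.37), from a low baseline. Junb (15.67 and 14.29) and Fosl1 (11.55 and 10.27), its AP-1 partners or relatives, and Egr1 (12.27 and 10.94, both probes at 1.30 or more) were higher too. Dusp5, a phosphatase of ERK kinases, was at 11.44 after AS exosomes and 9.95 at baseline. Myc (12.06 and 11.04), Atf3 (8.34 and 7.33) and Ptgs2, which makes prostaglandins (7.93 and 6.93), were at the threshold. Other members were level or lower, such as Jun (11.49 and 11.48), Dusp1 (7.77 and 8.06) and Arc (7.41 and 7.81). The serum response element was searched for only in the 10 letters marked here, and other forms of it were left unmarked. The promoter of Egr1 is printed because it holds these letters, in capitals, 105 to 96 bases before the start, in chr18:26736958-26737077 (+) of GRCr8. That of Sprr1a, the gene with the largest difference, is printed with the AP-1 letters TGACTCA (here as their reverse complement, at 147 and 117 bases before the start) and TATAAA in capitals, in chr2:180752626-180752775 (-).
Egr1: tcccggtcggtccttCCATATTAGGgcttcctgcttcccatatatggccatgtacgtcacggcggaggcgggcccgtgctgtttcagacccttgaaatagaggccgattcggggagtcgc
Sprr1a: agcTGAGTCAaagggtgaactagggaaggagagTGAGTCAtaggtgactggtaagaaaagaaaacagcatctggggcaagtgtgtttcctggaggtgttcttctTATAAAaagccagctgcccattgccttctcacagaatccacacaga
These exact letters of the serum response element were in 11 of the 27457 promoters, and TGACTCA in 4.53% of them, against 4 and 3.60% of the 9214 of measured genes. Of 21 promoters of the immediate early list, 1 held the serum response letters and 0 held TGACTCA. Sprr1a is not in that list. Such matches describe the promoters and do not show that a factor bound there.

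Among ligands and receptors, few were 2-fold apart. Of 32 PDGF, FGF, VEGF and EGF-type factors and receptors, 2 were at least 2-fold higher, against 1.00% of all genes. They were Tgfa and Hbegf, another EGF receptor ligand (9.93 after AS exosomes, 8.87 at baseline). Vegfa was at 11.89 and 11.17, with 0.24 to 1.60 over its probes. Of 38 TGF-beta, BMP and activin genes, 4 were at least 2-fold higher, against 1.00% of all genes. Id1 was at 10.15 after AS exosomes and 8.06 at baseline (difference 2.09), Id2 at 10.61 and 9.28, and Id4 at 9.37 and 8.16. These are BMP-induced inhibitors of basic helix-loop-helix factors. The fourth was the activin antagonist Fst (14.68 and 13.40). The BMP antagonist Grem1 lay on the other side (difference -0.99, with -0.89 on its second probe). Of 28 chemokines and cytokines, Il1rn, the interleukin 1 receptor antagonist, was higher (12.76 and 11.64) and Il34, a ligand of the macrophage growth factor receptor, was lower (8.69 and 10.40). Ccl2 (15.64 after AS exosomes, 15.15 at baseline) and Cxcl12 (16.65 and 16.18), chemokines made by fibroblasts, were less than 2-fold apart. Of 22 integrins and adhesion molecules, Itgb1 (7.70 and 6.50, with 0.54 on its second probe) and Alcam (10.66 and 9.66) were higher. Itgb1 was dim on both RF arrays, near the floor of the scale, against 12.78 in EC after AS exosomes and at baseline. The Itgb1 difference was as low as 0.70 under the alternative processing settings. Cd44, the hyaluronan receptor, was at 13.86 and 12.94 on its brightest probe, and its 4 probes ran from -0.14 to 0.92. Il11ra1, the interleukin 11 receptor (12.66 and 13.88), and the complement component C3 (10.67 and 12.18) were at least 2-fold lower.

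Amino acid stress genes of the Atf4 program were higher. Of 39, 6 were at least 2-fold higher after AS exosomes, against 1.00% of all genes, and 35 lay above 0 (median 0.58). Beside Gdf15 these were Trib3, a pseudokinase that restrains the program (9.06 after AS exosomes, 7.60 at baseline), the mitochondrial one-carbon enzymes Shmt2 (11.67 and 10.38) and Mthfd2 (11.72 and 10.43), and the amino acid transporters Slc7a5 (9.08 and 7.96) and Slc7a1 (10.24 and 9.12, with 0.22 on its second probe). Atf4 itself was at 15.16 and 14.35. Asns, asparagine synthetase and a usual target, was near the floor at 6.60 and 6.29, and Ddit3, a stress factor downstream of Atf4, was at 13.18 and 12.73. Of 18 cytosolic aminoacyl-tRNA synthetases, a list added after the values were seen, 16 lay above 0 (median 0.54). Only Cars1 was at least 2-fold higher (10.66 and 9.57), against 1.00% of all genes. Qars1 (14.37 and 14.79) and Kars1 (13.47 and 13.72) were the members below 0. The promoter of the synthetase gene Aars1 (13.67 after AS exosomes, 12.85 at baseline) is printed because it holds TTGCATCA, the reverse complement of the Atf4 and C/EBP letters TGATGCAA, in capitals, in chr19:55908362-55908481 (+) of GRCr8.
Aars1: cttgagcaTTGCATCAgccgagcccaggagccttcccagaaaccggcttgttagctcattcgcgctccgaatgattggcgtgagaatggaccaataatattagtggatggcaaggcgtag
TGATGCAA (either strand) was in 6 of 36 promoters of the Atf4 list (16.7%) and in 7 of 17 of the synthetase list (41.2%). It was in 0.743% of all promoters in the table and in 0.608% of those of measured genes. In the bases searched before the start, it was found for none of the 6 Atf4 genes at least 2-fold higher. Aars1 itself was not 2-fold apart.

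Chaperones of the endoplasmic reticulum were in part higher. Of 24, 5 were at least 2-fold higher after AS exosomes, against 1.00% of all genes, and 17 lay above 0 (median 0.44). Sdf2l1, a partner of the chaperone Hspa5, was at 12.84 after AS exosomes and 11.09 at baseline, with differences of 1.75 and 1.60 on its probes. Hspa5, the main chaperone of this compartment, was at 15.49 and 14.44, Hyou1 at 13.17 and 11.97, the sensor Atf6 at 11.17 and 10.03 (0.48 on its second probe) and Derl3, of the degradation channel, at 8.79 and 7.31 (0.20 on its second probe). The oxidoreductases Pdia6 (14.21 and 14.45) and P4hb (14.12 and 14.70) were below baseline. Cytosolic heat shock chaperones had a median of 0.20 over 18 genes and none was 2-fold apart. The promoters of Hspa5 at chr3:38452926-38453015 (+) and Derl3 at chr20:12766466-12766625 (-) of GRCr8 are printed because both hold the endoplasmic reticulum stress element, CCAAT and CCACG with 9 free bases between them, a search added after the values were seen. Its fixed letters are in capitals, as the reverse complement in Derl3.
Hspa5: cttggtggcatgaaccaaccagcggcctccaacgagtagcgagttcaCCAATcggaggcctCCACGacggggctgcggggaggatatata
Derl3: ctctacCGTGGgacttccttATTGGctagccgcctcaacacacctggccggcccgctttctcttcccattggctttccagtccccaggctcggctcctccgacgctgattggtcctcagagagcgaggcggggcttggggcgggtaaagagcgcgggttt
The element was in 8 of 19 promoters of the chaperone list in 21 of the 27457 promoters in the table and in 15 of the 9214 of measured genes.

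Glycolysis genes were higher, most of all at the transport steps. Of 21, 4 were at least 2-fold higher after AS exosomes, against 1.00% of all genes, and 20 lay above 0 (median 0.48). Slc16a3, which carries lactate out of the cell, was at 14.44 after AS exosomes and 12.52 at baseline (difference 1.92). Slc2a1, which carries glucose in, was at 13.36 and 11.86, and the first kinase of the pathway, Hk2, at 8.68 and 7.48. Pfkp, the platelet-type phosphofructokinase, was at 13.12 and 12.03, while the muscle-type Pfkm was at 11.14 and 11.97, the one member below 0. Ldha, which makes lactate, was at 16.49 and 15.68. Of 25 other hypoxia-induced genes, only Fam162a was at least 2-fold higher (14.85 and 13.80), against 1.00% of all genes, and the list median was 0.33. Car9, carbonic anhydrase 9, was at 10.94 and 10.23, and Ndrg1 at 11.01 and 11.70. The promoter of Slc2a1, chr5:138002432-138002521 (+) of GRCr8, is printed with ACGTG, the core letters of hypoxia response elements, in capitals.
Slc2a1: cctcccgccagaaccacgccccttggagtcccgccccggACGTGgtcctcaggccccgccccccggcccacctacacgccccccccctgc
ACGTG (either strand) was in 11 of 20 glycolysis promoters (55.0%) and 16 of 20 of the other hypoxia list (80.0%), against 19.7% of all promoters in the table and 25.5% of those of measured genes. Of the 4 glycolysis genes at least 2-fold higher, it was found only for Slc2a1 in the bases searched before the start.

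Ribosomal protein and oxidative phosphorylation genes were near baseline. The 69 ribosomal protein genes ran from -0.27 to 0.22 (median 0.01), and the 51 oxidative phosphorylation genes from -0.55 to 0.64 (median -0.05). Of 31 interferon-induced genes none was 2-fold apart (median -0.10), with a difference of 0.62 for Isg15 and with Mx1 at 8.96 after AS exosomes and 9.81 at baseline. Of 30 cholesterol and fatty acid synthesis genes, only Scd, the stearoyl-CoA desaturase, was at least 2-fold higher (9.08 and 7.93), against 1.00% of all genes. In this list 22 lay above 0 and the median was 0.30.

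EC after AS exosomes, set against their own baseline array, gave another picture. There 15 genes (0.136%) were higher by 2-fold or more and 125 (1.13%) were lower by as much. Across the 11069 genes the RF and EC differences had r = -0.08 (Spearman rho -0.02), given as a description, since genes are not independent replicates. Fos was at 6.85 in EC after AS exosomes and 12.94 in EC at baseline (difference -6.09), against a difference of 2.37 in RF. The median of the immediate early list was 0.46 in RF and -1.08 in EC, that of the Atf4 list 0.58 and -0.80, and that of glycolysis genes 0.48 and -0.09. Each difference rests on 1 array with 1 array, and whether RF and EC differ was not tested. The EC baseline array (Fos at 12.94) stood above both RF arrays (8.87 after AS exosomes, 6.50 at baseline) for this gene, and its part in the EC differences was not tested.

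**Figure D5:**
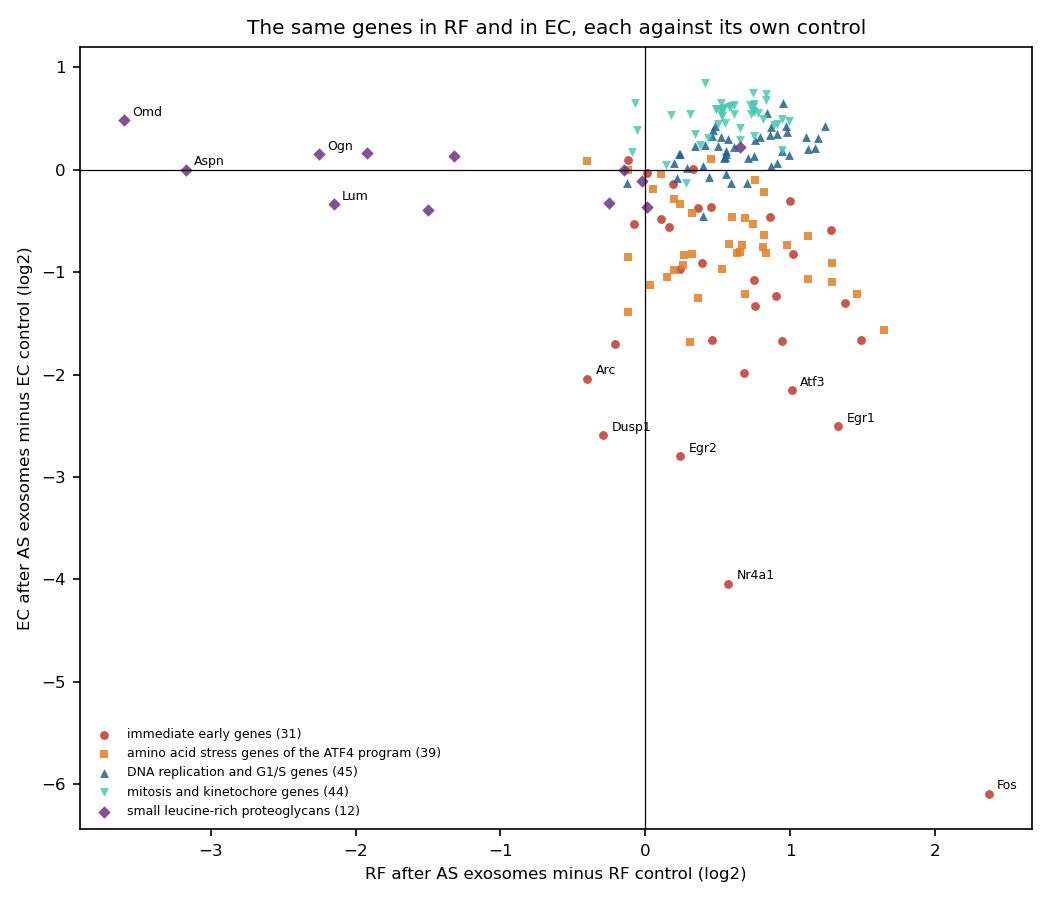
Each point is a gene of 5 lists that passed the filter, with its difference in RF after AS exosomes against RF control on the x axis and in EC after AS exosomes against EC control on the y axis, both in log2. Immediate early and Atf4 genes lie mostly right of and below 0, mitosis and replication genes mostly above 0 on both axes, and the proteoglycans spread along the RF axis alone.

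Transcripts carried in exosomes were looked for in RF. Exosome RNA was measured only for ASTspan8, not for AS. Of 3342 genes at log2 11 or more on both exosome arrays, 55 were at least 2-fold higher after AS exosomes and 34 lower (median 0.01). The shares over all genes were 1.00% higher and 1.17% lower. For genes at a mean RF level of 10 to 12 they were 1.42% and 1.38%. Of the 101 of these under 7.5 on the RF baseline array, 3 were at least 2-fold higher after AS exosomes (Fos, Itgb1 and Atf3), against 1.00% of all genes, and the median difference was 0.02. The baseline level that chose these 101 is also part of the difference and lies near the floor, so that they had little room to be lower. Of the 101, 7 reached 7.5 after AS exosomes.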

How the data were processed

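Each sample was hybridised to 1 one-colour Agilent array. The authors deposited linear intensity values, and the sources used here give no method of normalization between arrays. All values lie above 0, array medians run from 156.5 to 165.4, and both RF arrays have a median of 159.8. No normalization was applied to the deposited values. Of 30367 probes, 20369 had 1 gene symbol in the platform annotation and 9998 had none. Symbols were updated with the RefSeq table of assembly GRCr8, by accession (17237 probes), current symbol (2569) or unique synonym (551), and 12 were kept.

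A floor was set at the 1st percentile (62.2, log2 5.96), to which 0.816% of values were raised, before the log2 step. Probes whose mean percentile within arrays exceeded 50 in 1 or more of the 9 groups were kept (18619). A gene was represented by its probe with the highest mean over all arrays (11069 genes). A list member could pass through any group, so counts over members that passed are not counts over all members.

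With 1 array a group no test was made. Counts of genes at least 2-fold apart and list medians stand beside the same over all genes. The members, the 49 lists, their naming and the tests were chosen with earlier results of these data known. Added after the values were seen were the lists of tRNA synthetases, glutathione transferases, MHC class II genes and older histone symbols, and the search for the endoplasmic reticulum stress element. Named were the 15 genes at either end, up to 4 members of each list (2 in either direction where none was 2-fold apart), Tspan8, Cd44 and defining markers. Other names were chosen after their values were seen. Promoters (27457, 250 bases before to 50 after the start) came from RefSeq. The alternatives were other filters, floors, normalizations and the mean of a gene's probes. The counting was tested on simulated data. Work was done with Python 3.11.15, numpy 2.4.6, pandas 2.3.3 and statsmodels 0.14.6 (loess).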

Additional observations from a re-analysis of the deposited data

Results flagged for a closer look

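Some genes and lists were on opposite sides of baseline after AS exosomes in RF and in EC, each line on 1 array against 1 array. The difference was not tested. Given as the RF difference minus the EC difference in log2, the value was 8.46 for Fos, 3.83 for Egr1, 2.68 for Junb and 3.15 for Dusp5 among immediate early genes. For stress genes it was 3.22 for Gdf15, 3.13 for Gadd45g, 2.67 for Trib3, 2.39 for Mthfd2 and 2.09 for Cars1. For secreted factors and receptors it was 3.77 for Il1rl1, 3.18 for Tgfa, 2.39 for Il1rn and 2.08 for Hbegf. The others were Ddah1 (3.34), Id1 (3.29), Sod2 (3.03) and Cyp3a9 (2.99). For list medians it was 1.54 for immediate early genes, 1.38 for the Atf4 program, 1.10 for aminoacyl-tRNA synthetases, 0.59 for endoplasmic reticulum chaperones and 0.51 for other hypoxia-induced genes. In all of those listed RF lay above its baseline and EC below. The genes listed are all among the 140 named genes, and each was at least 2-fold apart in both lines. The listing is not complete. Outside it, Rgs2 had differences of 1.59 in RF and -2.53 in EC. Nnat had the sides reversed, at -1.03 in RF and 1.01 in EC.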

How the results depend on the processing

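No paired analysis was possible because the comparison has 1 array a group and gives no test. The 4 counts of genes and probes stayed within 1.5 times under every alternative that was run (gene counts of 95 to 112 higher). Of 49 list medians, 5 changed their side of 0 under some alternative, all of them within 0.08 of 0 as reported. They were other collagens (0.055, to -0.28), matricellular glycoproteins (0.03, to -0.10), smooth muscle genes (0.01, to -0.04), cartilage, bone and tendon genes (0.05, to -0.025) and hyaluronan and large proteoglycans (-0.08, to 0.05). Of 140 named genes, Cdc25b (-0.09, to 0.055) and Cenpf (-0.07, to 0.345) did so, both with the mean of a gene's probes. A list median was taken to move where it changed by more than the SD between the duplicate EC arrays. Without the filter on dim probes, small leucine-rich proteoglycans stood at -0.785 and carboxylesterase, aldehyde and amine oxidation genes at -0.26, since more dim members entered. With the filter at the 75th percentile, small leucine-rich proteoglycans stood at -1.92, fibrillar collagens at -0.38, other collagens at -0.28, elastic fibre genes at -0.33, endothelial markers at -0.42, leukocyte markers at -0.22, MHC class II genes at -0.75, endoplasmic reticulum chaperones at 0.64, linker histones at 2.05, replication genes at 0.775 and older-symbol histones at 1.405, each over fewer genes. With the filter set on the RF arrays compared, fibrillar collagens stood at -0.38. With the mean of a gene's probes, small leucine-rich proteoglycans stood at -1.26, elastic fibre genes at -0.36 and older-symbol histones at 0.905. Under that setting 22 named genes moved, as did 9 with a floor at log2 7. Quantile, loess and median centring moved no list median and no named gene by that much. Signal near the floor of 5.96 limits dim genes, whose differences are compressed there.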

Other observations

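Other genes at least 2-fold apart were not described above. Higher after AS exosomes in RF were Rgs2, a regulator of G protein signalling (10.19 after AS exosomes, 8.60 at baseline), the long pentraxin Ptx3 (11.20 and 9.89), the fatty acid binding protein Fabp3 (11.95 and 10.49), Socs3, an inhibitor of cytokine signalling (9.11 and 7.80), the transferrin receptor Tfrc (11.91 and 10.88) and Nox1, a superoxide-producing oxidase (11.77 and 10.55). Lower were Igfbp6, a binding protein of insulin-like growth factor 2 (14.25 after AS exosomes, 15.38 at baseline), the Wnt regulator Sfrp2 (8.53 and 9.63), the fatty acid transporter Cd36 (8.61 and 10.24), Cd74, the MHC class II invariant chain (8.05 and 9.52), and the homeobox gene Meox2 (11.82 and 13.11). Igfbp6, Sfrp2, Cd36 and Cd74 belong to the lists of IGF, Wnt, adipocyte and MHC class II genes, and the others to no list. Those in no list were chosen after their values were seen.

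The share of genes at least 2-fold apart varied with level. It was lowest below log2 8, at 0.441% higher and 0.535% lower of 3175 genes, and between 10 and 12 it was 1.42% higher and 1.38% lower of 2680 genes. Of the 111 genes at least 2-fold higher, 57 were in at least 1 list, as were 42 of the 129 lower.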
